A study of Cavia porcellus with 9 samples.

Results

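The genes considered here, for the guinea pig retina, make, carry, clear or sense retinoic acid. They were chosen by name: Aldh1a1, Aldh1a2, Aldh1a3, Cyp26a1, Cyp26b1, Rara, Rarb, Rxra, Rxrg and Crabp1, 10 genes in all. Of these, 7 were found by symbol among the 19962 genes of the count table, and 6 passed the filter on low counts and were tested with 15469 genes in all. Aldh1a2 had too few counts to be tested, and Aldh1a1, Cyp26a1 and Cyp26b1 were not analysed here. The values below therefore cover none of the named genes that clear retinoic acid.

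Retinas came from male guinea pigs (Cavia porcellus, tri-color, Dunkin-Hartley strain) that were obtained at 2 weeks of age. Animals lived under green light, blue light or white light for 8 weeks, with light and dark periods of 12 hours each, and were sampled at 12 weeks of age. Each light has 3 libraries, and in each light 2 of the 3 carry the same animal number, so 9 libraries stand for 6 animal labels. The labels of blue library 1 (2R-23) and white library 3 (R-23) share the part R-23, and they were taken as different animals, which the labels do not state. Neither wavelength nor intensity of the lights is stated in the labels.

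Retinoic acid is produced from retinal, the aldehyde of vitamin A, by the retinaldehyde dehydrogenases that the Aldh1a genes encode. Crabp1 binds it in the cytoplasm, Cyp26 enzymes oxidise it for removal, and it acts through retinoic acid receptors (Rara, Rarb, Rarg) that bind DNA in heterodimers with retinoid X receptors (Rxra, Rxrb, Rxrg). The pathway has been studied in chicks and guinea pigs as a possible signal between the retina and the growing wall of the eye.

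None of the 6 tested genes passed the test between green and white light, between blue and white light or between green and blue light. Levels are CPM, counts per 1000000 counts of a library, scaled by edgeR's TMM factors, and a gene is called at a Benjamini-Hochberg adjusted p under 0.05 in edgeR's quasi-likelihood test. In green against white 0 of 6 were called, beside 0.00646% of all genes tested. The count was also 0 of 6 in blue against white, beside 0.00646% of all genes, and 0 of 6 in green against blue, beside 0% of all genes. When the 3 lights were tested jointly for any difference, edgeR called 0 of 6, beside 0.00646% of all genes. DESeq2's Wald test called 0 of 6 in each comparison as well, beside 0.155% of all genes in green against white, 0.181% in blue against white and 0.359% in green against blue. None of the 6 reached an unadjusted p under 0.05 in edgeR, a level reached by 5.81% of all genes in green against white, 4.45% in blue against white and 7.18% in green against blue. In no comparison did the libraries of the groups separate for any of the 6, as they did for 10.1%, 9.9% and 14.2% of all genes in the same order of comparisons.

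**Figure D1:**
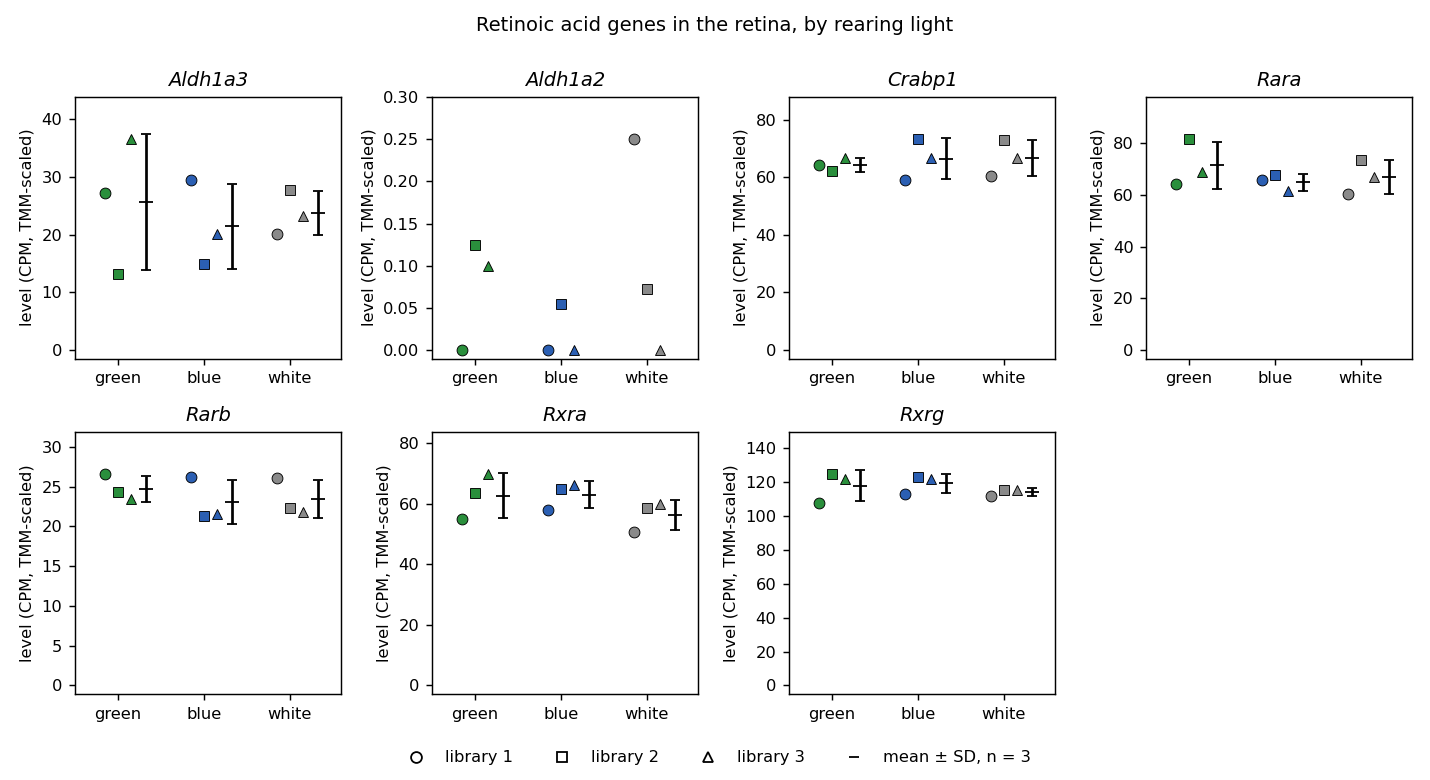
TMM-scaled CPM (vertical axes, linear, one scale per gene) of the 7 genes with a row in the table, by rearing light; each symbol is 1 library, and the dash with its bar is the mean ± SD of 3 libraries, left out for Aldh1a2. The 3 lights overlap for every gene shown, and Aldh1a3 ranges most widely of the 6 tested genes, from 13.1 to 36.6 CPM.

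Synthesis was represented by Aldh1a3, the retinaldehyde dehydrogenase that marks the ventral retina of the mouse embryo. Aldh1a3 stood at 27.2, 13.1 and 36.6 CPM in green libraries 1 to 3, at 29.4, 14.8 and 20.2 CPM in blue libraries and at 20.2, 27.8 and 23.2 CPM in white libraries. The lowest and the highest of all 9 libraries were both green. The means were 25.6 ± 11.8 CPM in green, 21.5 ± 7.38 CPM in blue and 23.7 ± 3.84 CPM in white (SD, n = 3 each). The log2 difference was 0.11 ± 0.33 (SE) in green against white and -0.14 ± 0.33 in blue against white, with adjusted p of 0.988 and 0.99996 in edgeR. The 95% interval of the green to white ratio ran from 0.657 to 1.77, so ratios within that range are compatible with these libraries. The smallest change that would have been called was not determined. Without green library 3 the log2 difference of green and white was -0.24, and without green library 2 it was 0.42.

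The spread of Aldh1a3 was also present between libraries of the same animal number. The 2 green libraries with animal number 11 (each labelled right eye) differed 2.07-fold, those of blue animal 32 differed 1.36-fold and those of white animal 6 differed 1.38-fold. Over all 9 libraries the highest value was 2.79 times the lowest. The biological coefficient of variation that edgeR gave Aldh1a3 was 28.2%, above that of 83.8% of genes, against a median of 13.9% over all genes. Pigment epithelium markers, from the layer that adjoins the retina, differed among these libraries too. The sum of the 10 markers was 266, 687 and 261 CPM in green libraries 1 to 3, 475, 529 and 641 CPM in blue and 347, 684 and 314 CPM in white, and Tyrp1 and Dct, 2 of the 10, were at 0 in at least 1 library. Rgr gave the most to this sum and ranged 2.07-fold over the 9 libraries, against 18.6-fold for Rpe65 and 24.4-fold for Pmel. With the mean log2 level of the 10 markers as a covariate, the log2 difference of Aldh1a3 in green against white was 0.25. Ciliary body and lens markers differed among the libraries as well. Their 9 genes summed to 263, 242 and 315 CPM in green libraries 1 to 3, 323, 241 and 314 CPM in blue and 224, 290 and 213 CPM in white. Green library 2 and blue library 2 were the lowest of their lights in this sum and in Aldh1a3, and green library 3, blue library 1 and white library 2 were the highest of their lights in both. The lowest white library was library 3 in this sum and library 1 in Aldh1a3. Col9a1, a collagen gene, averaged 183 CPM in green, 212 CPM in blue and 177 CPM in white, so this sum mostly reflects Col9a1. It ranged 1.47-fold over the 9 libraries, against 47.8-fold for Cryaa and 5.46-fold for Wfdc1 of the same markers. Cryba1, Mip and Opn5 were at 0 in at least 1 library. The part of either tissue in the spread of Aldh1a3 was not tested.

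Aldh1a2, a second retinaldehyde dehydrogenase, was close to the limit of detection. It had 0, 8 and 7 counts in green libraries 1 to 3, 0, 4 and 0 counts in blue and 17, 5 and 0 counts in white. A count of 0 was read as at most 3 counts, a one-sided 95% limit that comes to 0.0385 to 0.0483 CPM depending on the library; the two-sided exact Poisson limit for a count of 0 is 3.69 counts. The summed counts were 15 in green, 4 in blue and 22 in white, with two-sided exact 95% Poisson intervals of 8.40 to 24.7, 1.09 to 10.2 and 13.8 to 33.3 counts. These intervals cover at most counting error, each light includes at least 1 library at 0, and 17 of the 22 white counts came from library 1. They take each count as 1 fragment. Low counts favour multiples of 4 (2014 values of 4 against 472 values of 3), so the intervals and the limits for a count of 0 may be too narrow. Markers of the choroid and sclera, the layers outside the retina, were also summed. The 9 markers together ranged from 77.1 to 88.8 CPM in green, from 70.8 to 83.8 CPM in blue and from 79.2 to 85 CPM in white. Pdgfrb gave the most to this sum, at means of 27.1 CPM in green, 26.1 CPM in blue and 29.2 CPM in white. Dcn, another of them, was at 0 in at least 1 library. The amount of either layer in these samples was not tested.

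Crabp1 had 64.1, 62 and 66.8 CPM in green libraries 1 to 3, 59.2, 73.3 and 66.7 CPM in blue and 60.4, 72.8 and 66.7 CPM in white. All 3 green values lay inside the ranges of both other lights. The log2 difference was -0.05 ± 0.10 in green against white, -0.01 ± 0.10 in blue against white and -0.05 ± 0.10 in green against blue (edgeR adjusted p = 0.986, 0.99996 and 0.938). The 95% intervals of the ratios reached from 0.829 to 1.13 for green against white and from 0.855 to 1.16 for blue against white.

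**Figure D2:**
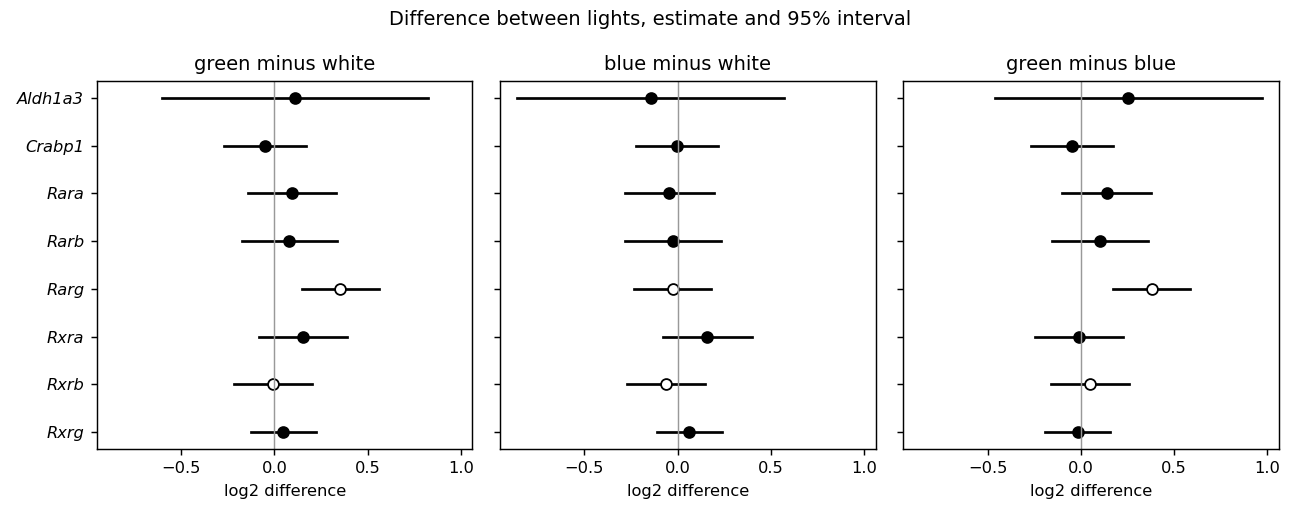
Log2 difference (horizontal axis) with its 95% interval from edgeR for the 6 tested genes (filled) and the other 2 receptor genes Rarg and Rxrb (open), in 3 comparisons. The intervals of all 6 filled genes include 0 in each panel, and that of Aldh1a3 is the widest; Rarg lies above 0 in both green comparisons, where its adjusted p is 0.768 and 0.536.

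Of the retinoic acid receptors, Rara had 64.3, 81.8 and 68.8 CPM in green libraries 1 to 3, 65.8, 67.9 and 61.5 CPM in blue and 60.3, 73.7 and 67.1 CPM in white. Its highest library was green library 2, and the other green libraries lay among those of blue and white. The log2 difference was 0.10 ± 0.11 in green against white, -0.04 ± 0.11 in blue against white and 0.14 ± 0.11 in green against blue, with edgeR adjusted p of 0.977, 0.99996 and 0.804. Without green library 2 the first of these was -0.01.

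Rarb, the receptor gene that retinoic acid itself induces in many cells, had 26.6, 24.3 and 23.4 CPM in green libraries 1 to 3, 26.3, 21.3 and 21.6 CPM in blue and 26.2, 22.3 and 21.8 CPM in white. Each light included a library near 26 CPM, and the green mean was 1.06 times the white mean in the fit (95% interval 0.885 to 1.26). The edgeR adjusted p was 0.982 in green against white, 0.99996 in blue against white and 0.854 in green against blue.

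The third receptor of this class, Rarg, is not among the 10 named genes and was examined within a wider list of retinoid genes. Rarg had 36.8, 35.9 and 37.8 CPM in green libraries 1 to 3, 31.3, 27.3 and 26.3 CPM in blue and 27.2, 28.7 and 30.5 CPM in white. All 3 green libraries lay above all blue and white libraries, and blue and white overlapped. The log2 difference was 0.35 ± 0.09 in green against white and 0.38 ± 0.09 in green against blue, at unadjusted p of 0.00320 and 0.00194 in edgeR. Neither passed over all genes (adjusted p = 0.768 and 0.536), nor did either in DESeq2 (adjusted p = 0.172 and 0.0666). These 2 comparisons share the green libraries. Whether Rarg differed from Rara or Rarb in its response was not tested.

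Among the retinoid X receptors, Rxra had 54.8, 63.5 and 69.7 CPM in green libraries 1 to 3, 58, 65 and 66.1 CPM in blue and 50.8, 58.6 and 59.8 CPM in white. The highest white value lay below 2 of the 3 values in each of green and blue, and the ranges overlapped. The means were 62.7 ± 7.48 CPM in green, 63.0 ± 4.42 CPM in blue and 56.4 ± 4.92 CPM in white (SD, n = 3 each). The log2 difference from white was 0.15 ± 0.11 in green and 0.16 ± 0.11 in blue, with edgeR adjusted p of 0.946 and 0.99996, and both comparisons share the white libraries. Green and blue differed by -0.01 ± 0.11. Green library 1 and white library 3 carry the suffix "-B" in their titles, which the labels do not explain. Without these libraries the log2 difference of Rxra in green against white was 0.28, with an adjusted p of 0.706 in edgeR.

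Rxrg, which is expressed in cones and holds down short-wavelength opsin in the mouse, varied least of the 6. It had 107, 124 and 121 CPM in green libraries 1 to 3, 113, 123 and 122 CPM in blue and 111, 115 and 115 CPM in white. The lowest and the highest of these values were both green, and the highest was 1.16 times the lowest. Its biological coefficient of variation was 8.43%, and 4.24% of genes had one as low or lower. The log2 difference was 0.05 ± 0.08 in green against white and 0.06 ± 0.08 in blue against white (edgeR adjusted p = 0.982 and 0.99996). The 95% intervals of the ratios were 0.916 to 1.17 and 0.927 to 1.18. Rxrb, the remaining gene of the class, averaged 60.5 ± 5.61 CPM in green, 58.4 ± 3.50 CPM in blue and 60.9 ± 4.28 CPM in white (SD, n = 3 each), with edgeR adjusted p of at least 0.917 in the 3 comparisons.

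The receptor genes did not all follow each other over the libraries. In each light, the library with the lowest Rxrg also had the lowest Rxra and the highest Rarb: library 1 of each. Over the 9 libraries, log2 levels of Rxra and Rxrg correlated at Pearson's r = 0.85. Rarb ran the other way, at -0.65 with Rxra, -0.66 with Rxrg and -0.81 with Crabp1. Rara was at -0.17 with Rarb, 0.37 with Rxra and 0.49 with Rxrg. Aldh1a3 correlated with none of the other 5 beyond -0.48. These are descriptions over libraries that in part share an animal. The ratio of Rxra to Rxrg ranged from 0.510 to 0.574 over green libraries, from 0.515 to 0.542 over blue ones and from 0.455 to 0.520 over white ones. Rod and cone markers summed to 63397 CPM in green library 1, 74925 CPM in blue library 1 and 74110 CPM in white library 1, the lowest sum of each light, and to between 76244 and 82412 CPM in the other 6 libraries. The TMM factors of these 3 libraries, 1.05, 1.02 and 1.02, were the highest of their lights. The part of photoreceptor content or scaling in these correlations was not tested, and in whole retina fewer cells of a type and less RNA per cell cannot be told apart.

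The genes most like each member over the 9 libraries were taken by Pearson's r of log2 levels. For Aldh1a3 these were Ltbp1, a binding protein of latent TGF-beta, at 0.94 and Col2a1, the chain of type II collagen, at 0.93. Col2a1 had 126, 101 and 148 CPM in green libraries 1 to 3, 140, 106 and 115 CPM in blue and 110, 146 and 135 CPM in white. Its minimum and its maximum in each light were in the same libraries as those of Aldh1a3. The genes nearest to Rara were Med24 and Lig3 (0.95 and 0.94), to Rarb Mbtps2 and Rbm28 (0.97 and 0.97), and to Rxra Dhrs11 and Mtx1 (0.97 and 0.96). Those nearest to Rxrg were Lrrc20 and Ogdh (0.97 and 0.96), and those nearest to Crabp1 were Josd2 and Rps26 (0.93 and 0.93). Such values are the highest among all tested genes with a symbol, over few libraries.

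A wider set of 85 retinoid genes in 8 lists covered the supply of retinoids, the partners and cofactors of the receptors, and genes they regulate. Of these, 76 had a row and 67 were tested. edgeR called 0 of 67 in each comparison. Beside this stand 0.00646% of all genes in green against white, 0.00646% in blue against white and 0% in green against blue. The same shares stand beside the counts of called genes per list below. DESeq2 called 1 of 67, Bco2, in green against white, where it called 24 of all 15456 genes with an adjusted p (0.155%), and 0 in the other comparisons. An unadjusted p under 0.05 was reached by 10.4% of the 67 in green against white, 10.4% in blue against white and 7.46% in green against blue. The corresponding shares of all genes were 5.81%, 4.45% and 7.18%. Of the 67, groups lay apart for 5 higher and 2 lower genes in green against white. In blue against white 6 were higher and 1 lower, and in green against blue 2 were higher and 4 lower. Groups lay apart for 10.1%, 9.9% and 14.2% of all genes in the same order of comparisons. The median log2 difference of the 67 was -0.0068 in green against white, 0.033 in blue against white and -0.0072 in green against blue, against 0.0090, 0.0048 and -0.0025 over all genes.

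Of the enzymes that handle retinyl esters, retinal isomers and carotenoids, 0 of 8 tested were called in any comparison by edgeR. Bco2, which cleaves carotenoids off-centre, had 20.1, 28.1 and 24.9 CPM in green libraries 1 to 3, 15.1, 22.2 and 26.1 CPM in blue and 13.3, 12.5 and 15.7 CPM in white. All green libraries and 2 of the 3 blue ones lay above every white library. The log2 difference was 0.82 ± 0.19 in green against white (adjusted p = 0.703 in edgeR and 0.0255 in DESeq2) and 0.61 ± 0.19 in blue against white (0.968 and 0.319). Rpe65, the isomerase of the pigment epithelium, had 14.4, 102 and 7.76 CPM in green libraries, 61, 63.8 and 98.6 CPM in blue and 44.9, 144 and 15.1 CPM in white, a spread within lights that exceeds any difference of their means.

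**Figure D3:**
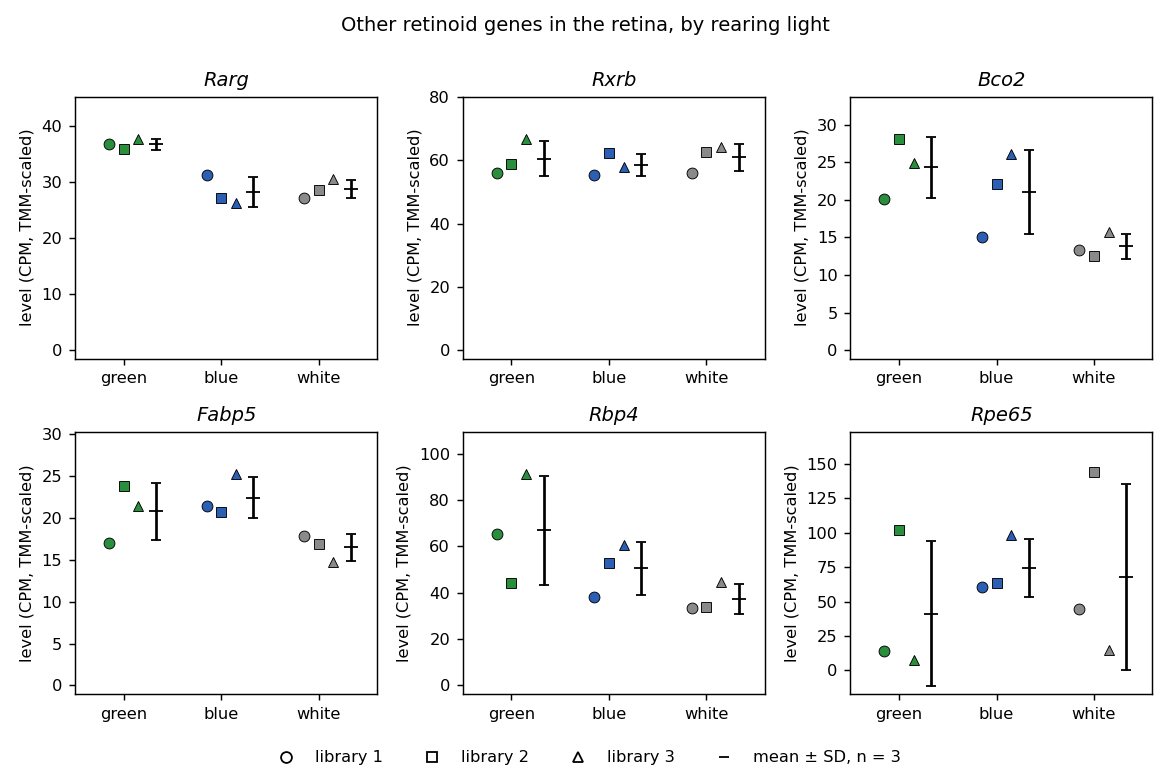
TMM-scaled CPM (vertical axes, linear, one scale per gene) of 6 other retinoid genes by rearing light; each symbol is 1 library, and the dash with its bar is the mean ± SD of 3 libraries. Rarg and Bco2 lie higher in all green than in all white libraries, while Rpe65 ranges from 7.76 to 144 CPM within and between lights.

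Among 8 tested carriers and uptake genes 0 were called. Fabp5, a lipid chaperone that can deliver retinoic acid, had 21.3, 20.6 and 25.2 CPM in blue and 17.8, 16.9 and 14.7 CPM in white libraries, without overlap (log2 difference 0.44 ± 0.14, edgeR adjusted p = 0.968). Its green libraries had 17.0, 23.8 and 21.4 CPM and overlapped the same white ones (log2 difference 0.33 ± 0.14, edgeR adjusted p = 0.852). Rbp4, the retinol carrier of plasma, was singled out after its values were seen. It averaged 66.8 ± 23.5 CPM in green, 50.4 ± 11.3 CPM in blue and 37.2 ± 6.56 CPM in white (SD, n = 3 each), and its lowest green library, at 44 CPM, lay below the highest white one, at 44.8 CPM. The log2 difference of green and white was 0.84 ± 0.24 (edgeR adjusted p = 0.791, DESeq2 adjusted p = 0.0687).

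Among 11 tested oxidoreductases, which interconvert retinol and retinal or are related to such enzymes, 0 were called. Dhrs7 had 38.2, 37.7 and 36.1 CPM in green libraries against 31, 34.8 and 29.2 CPM in white libraries (log2 difference 0.24 ± 0.09, edgeR adjusted p = 0.850). Its blue libraries, at 37.1, 34.4 and 38.8 CPM, differed similarly from the same white ones (log2 difference 0.22 ± 0.09, edgeR adjusted p = 0.99996). Sdr16c5, an epidermal-type retinol dehydrogenase, had 29, 44 and 78 counts in blue libraries against 0, 12 and 8 counts in white libraries. At these low counts its log2 difference of 2.81 ± 0.87 had an adjusted p of 0.935 in edgeR.

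**Figure D4:**
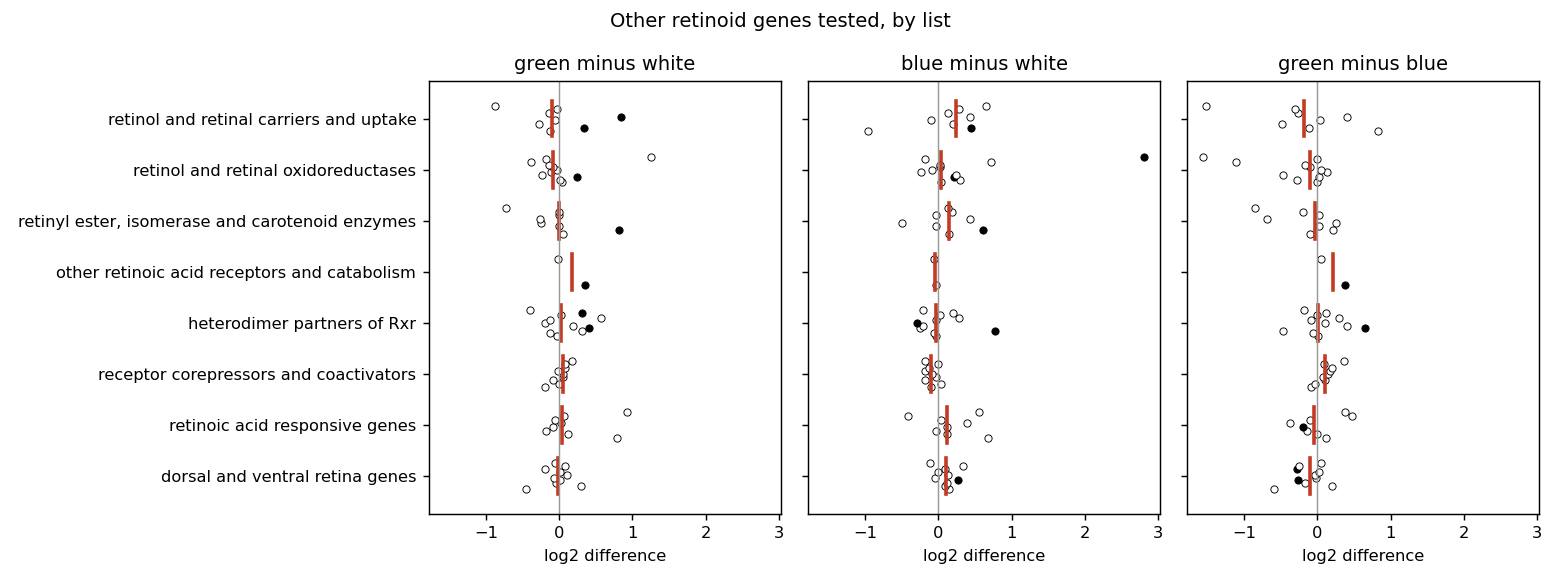
Log2 difference (horizontal axis) of each of the 67 other retinoid genes tested, by list, in 3 comparisons; filled symbols have an unadjusted edgeR p under 0.05, and red bars are list medians. Most symbols lie near 0, and none passed the adjusted threshold in edgeR.

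Nuclear receptors that pair with retinoid X receptors had 0 of 11 called. Thrb, a thyroid hormone receptor that cones use, had 62.5, 64.2 and 51.3 CPM in green and 50.7, 43.5 and 49.2 CPM in white libraries (log2 difference 0.31 ± 0.13, edgeR adjusted p = 0.850). Ppara, a fatty acid receptor, had 15.9, 14.8 and 14.1 CPM in blue and 18, 17.9 and 19.1 CPM in white libraries (log2 difference -0.30 ± 0.11, edgeR adjusted p = 0.99996). Its green libraries, at 14.4, 17.9 and 15.7 CPM, also lay below the same white ones, barely for library 2 (log2 difference -0.20 ± 0.11, edgeR adjusted p = 0.913). Nr1h4, the bile acid receptor, averaged 1.34 ± 0.406 CPM in blue and 0.781 ± 0.152 CPM in white (SD, n = 3 each), without overlap (edgeR adjusted p = 0.99996). Of 9 corepressors and coactivators, 0 reached an unadjusted edgeR p under 0.05 in any comparison. Over all genes, 5.81% did in green against white, 4.45% in blue against white and 7.18% in green against blue. The median log2 difference of the 9 cofactors was 0.05 in green against white, -0.10 in blue against white and 0.10 in green against blue. Of 8 tested genes that retinoic acid regulates in other tissues, 0 were called, and Nr2f2, an orphan receptor, averaged 27.6 ± 2.03 CPM under green light and 31.7 ± 1.49 CPM under blue light (SD, n = 3 each; log2 difference -0.20 ± 0.09, edgeR adjusted p = 0.693).

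The tissue matched its label: rod and cone, Müller glia, bipolar and amacrine, and ganglion cell markers were present in all 9 libraries. Library totals ran from 65695294 to 74545367 counts in green, 68372622 to 74979806 in blue and 62155041 to 70630932 in white. Log2 levels correlated across genes at a mean r of 0.973 between libraries of the same animal number, 0.970 within a light otherwise and 0.969 between lights. Because some libraries share an animal, the p-values reflect variation among libraries, not among animals.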

How the data were processed

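The deposited table holds raw counts per gene, in whole numbers, for 9 retina libraries, per the file headers, from paired-end Illumina sequencing of RNA extracted with Trizol, per the labels' protocols. How reads were aligned and counted, with what strand setting, build and annotation, is not given in the sources that were used. Symbols were used as deposited, and all 7 retinoic acid genes found match the names table of assembly mCavPor4.1. Near-identical copies could share reads with these genes.

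All 9 libraries were fitted in edgeR 4.0.16 (R 4.3.3) with light as the only term, after filterByExpr (minimum count 10, minimum total 15; 4493 genes removed) and TMM scaling. SE is the log2 difference over the root of F, and intervals use the t quantile at the fit's degrees of freedom. Log2 levels for correlations use a prior count of 0.5. The fit was tested on simulated data. DESeq2 1.42.0 and the other alternatives are given in the closing section; those for normalized values did not apply. Low counts favour multiples of 4, so a unit may not be 1 fragment. The retinoic acid genes and lists were chosen with earlier results of these data known. Other retinoid genes are named where they pass, or reach an unadjusted p under 0.05 with groups that do not overlap, up to 4 per list and comparison. Rxrb, Rpe65, Rbp4, Vax1, Vax2, Tbx2, Tbx5, Bmp4, Ephb2, Ephb3, Efnb1, Efnb2 and Chrdl1 are named outside this rule. Libraries are numbered in order of accession.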

Additional observations from a re-analysis of the deposited data

How the results depend on the processing

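Under 17 alternatives, the count of called genes among the retinoic acid genes was 0 in every comparison, and that among the 67 other retinoid genes was 0 except for 1 in green against white with DESeq2's Wald test. The alternatives were DESeq2's size factors, no filter, DESeq2, a fit of only the 6 libraries compared, each library left out, counts summed per animal number, pigment epithelium level as a covariate, counts divided by 4, and no "-B" libraries. Of 306 log2 differences of the 6 genes, 280 kept the sign of the reported value and 26 did not. The cause was not tested. In at least 1 alternative, in edgeR or DESeq2, Rxra had an unadjusted p under 0.05 in green against white (lowest 0.0452). So did Rara and Aldh1a3 in green against blue (lowest 0.0478 and 0.0483). The lowest adjusted p of these 3 differences in any alternative were 0.706, 0.734 and 0.676. Leaving out 1 library gave -0.24 to 0.42 for Aldh1a3, -0.011 to 0.17 for Rara and -0.12 to 0.018 for Crabp1 in green against white. In blue against white it gave -0.44 to 0.063 for Aldh1a3, -0.13 to 0.030 for Rara, -0.13 to 0.053 for Rarb and -0.083 to 0.071 for Crabp1. In green against blue it gave -0.086 to 0.57 for Aldh1a3, -0.087 to 0.085 for Rxra, -0.058 to 0.051 for Rxrg and -0.12 to 0.032 for Crabp1. With counts summed per animal number, Rarb was 0.049 in blue against white, and Rxra, Rxrg and Crabp1 were 0.055, 0.0078 and 0.0055 in green against blue. With the pigment epithelium covariate Rxra was 0.0066 in green against blue. Without the "-B" libraries Rarb was -0.029 in green against white, and Rxra and Rxrg were 0.085 and 0.051 in green against blue. The differences of Rxra and Rxrg from white stayed above 0 in all 17 alternatives for both coloured lights, as did those of Rarg from white and from blue in green. All alternatives reuse the same libraries, and both differences from white share the white ones. Rarg was named because its groups do not overlap, so leaving out 1 library could hardly change its sign. The kept signs are therefore no separate support. No paired analysis was possible because the library numbers pair nothing across lights, and whether 2R-23 and R-23 name the same animal is unknown. Small n limits all of this: 3 libraries and 2 animal numbers per light.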

Other observations

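Genes that mark the dorsal and ventral parts of the developing retina were followed because Aldh1a3 is ventral in the mouse embryo. Of the 11, 10 were tested and 0 were called in edgeR, beside at most 0.00646% of all genes in any comparison. Vax2, a ventral homeobox gene, had 63, 66.6 and 60.9 CPM in green libraries 1 to 3, 62.8, 68.8 and 52.9 CPM in blue and 61.9, 66.9 and 70.1 CPM in white. Tbx5, a dorsal T-box gene, had 5.55, 7.61 and 9.90 CPM in green libraries, 10.5, 7.95 and 8.98 CPM in blue and 6.90, 7.84 and 7.06 CPM in white. Its blue libraries all lay above its white ones (log2 difference 0.33 ± 0.20, edgeR adjusted p = 0.99996). Bmp4, a dorsal growth factor gene, had 1.13, 0.873 and 0.770 CPM in green libraries, 1.54, 0.773 and 1.89 CPM in blue ones and 1.02, 1.52 and 1.25 CPM in white ones. Ephb3, a ventral receptor gene, had 11.6, 13.5 and 13.3 CPM in green libraries, 13.5, 12.6 and 13.0 CPM in blue ones and 10.2, 13.6 and 11.9 CPM in white ones. The part of retinal position in the spread of Aldh1a3 was not tested. Tbx3, another dorsal gene, had 24.5, 27.9 and 27.6 CPM in green and 35.8, 30.8 and 30.6 CPM in blue libraries, without overlap (log2 difference -0.28 ± 0.11, edgeR adjusted p = 0.656). Efnb2, of the same list, had an unadjusted edgeR p of 0.0391 in blue against white and 0.0424 in green against blue. Its groups overlapped in both (edgeR adjusted p = 0.99996 and 0.686). Tbx2, a further T-box gene of the list, averaged 166 CPM in green, 163 CPM in blue and 164 CPM in white. Its log2 difference in green against blue was 0.02 ± 0.09 (edgeR adjusted p = 0.974). The groups of Tbx2, Efnb1, Ephb2 and Chrdl1 overlapped in every comparison, and Vax1 was at 0 in every library. The labels do not state which part of each retina was sampled.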
